A study of Arabidopsis thaliana with 24 samples.

Results

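ATSBT5.2 (AT1G20160, on chromosome 1) is a gene of the subtilases, the plant family of subtilisin-like serine proteases. It was followed over a time course in root meristems of Arabidopsis thaliana, as 1 gene of 16552 measured. It was chosen by its log2 values over all 8 times of these same arrays, for an early and sustained rise, so its levels and changes are given below as a description, with no test. The gene has 1 probe set on the array. RefSeq lists 3 transcripts for it, and a single probe set does not separate them.

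Subtilases are made as inactive precursors. Most are secreted, and they cut other proteins in the cell wall, among them the precursors of peptide hormones. ATSBT5.2 is also known as CRSP, a protease that cuts the precursor of EPF2, a peptide that limits stomatal number, when leaves are kept in high CO2. It is one of the subtilases known to process the precursor of IDA, the peptide that triggers floral organ abscission. An isoform made by alternative splicing stays inside the cell and binds the defence factor MYB30.

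All arrays came from 1 genotype, Col-0 seedlings aged 4 days that carried both pRPS5A::TMO5:GR and pRPS5A::LHW:GR. TMO5 and LHW are bHLH transcription factors that act as a pair to drive divisions of vascular cells. Both carry a glucocorticoid receptor domain (GR), which holds a fusion protein outside the nucleus until dexamethasone is given. The RPS5A promoter drives them in dividing cells at large and not only in vascular cells. Seedlings were moved to dexamethasone medium, and root meristems were taken at 0, 0.5, 1, 2, 3, 4, 5 and 6 h, with 3 arrays at each time. The 0 h seedlings carried the same constructs. Neither seedlings lacking the constructs nor seedlings moved to steroid-free medium were analysed here, and steroid, transfer and elapsed time cannot be told apart in any comparison with 0 h. Whether repeats came from separate cultures is not in the labels, so a p-value here covers the spread between these arrays, which may be technical.

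Values are log2 expression after RMA, and a difference of 1 is a 2-fold change. Array medians lay between 3.86 and 4.01, and 3 arrays a time limit the precision of every value. The root meristem gene BBM, the 1 measured of 5 listed meristem markers, had log2 values of 5.60, 5.07 and 4.91 at 0 h. On the first principal component, which held 18.8% of the variance, array 3 lay closer to the late times than the other repeats did at 0 h (-5.16, against -27.2 and -21.5), and also at 0.5, 1 and 2 h. Results are therefore also given without array 3 of these 4 times. LHW, whose probe set may read the introduced copy together with the plant's own gene, averaged 7.25 ± 0.07 at 6 h and 7.33 ± 0.13 at 0 h (SD, n = 3 each). It was lower in between, with changes of -0.36 at 1 h and -0.24 at 2 h, where every array lay below all arrays of 0 h. Its adjusted p in limma was not under 0.05 at any time. TMO5 was not analysed here.

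ATSBT5.2 was already higher at the first time after transfer and stayed higher to the end of the course. At 0 h its log2 values were 5.43, 5.72 and 5.87. At 0.5 h all 3 arrays read 6.47, and at 1 h they read 6.88, 6.95 and 6.98. The arrays of 0.5 h thus lay above all arrays of 0 h, and those of 1 h above all arrays of 0.5 h. At 2 h the values were 6.96, 6.99 and 7.42, with array 3 standing above the other repeats and the group overlapping with 1 h. At 3 h they were 7.44, 7.50 and 7.64, the highest of the course and above every array of 2 h.

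After 3 h the level was lower again but far above the start. At 4 h the log2 values were 7.03, 7.37 and 7.43, at 5 h 7.06, 7.43 and 7.31, and at 6 h 6.82, 7.29 and 7.22. All 9 of these arrays lay below the lowest array of 3 h, at 4 and 5 h by margins under 0.01, and above the highest array of 0.5 h. All 21 arrays taken after 0 h exceeded the highest 0 h array, a pattern shared by 66 of 16552 genes (0.399%). Because this pattern is close to what the gene was picked for, nothing is read from its place in that share. A log2 change of at least 1 at each time from 1 to 6 h was found in 2 genes (0.0121%), ATSBT5.2 and AT5G39080, AT5G39080 being named after its values were seen. That span leaves out 0.5 h, and AT4G38650 missed the cut-off only at 5 h, with 0.96. This count too is close to what ATSBT5.2 was picked for, so nothing is read from it.

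**Figure D1:**
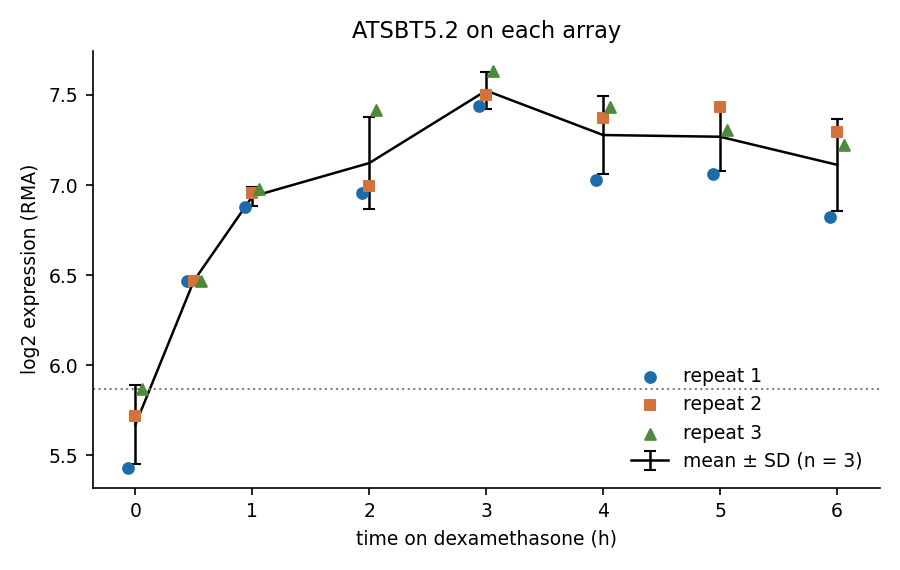
Log2 expression of ATSBT5.2 on each of 24 arrays against time on dexamethasone in hours, with the mean and SD of 3 arrays at each time as a black line and the 3 repeats as coloured symbols. The dotted line marks the highest 0 h array at 5.87, and every later array lies above it, with the highest mean at 3 h.

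In means, ATSBT5.2 was 0.80 above 0 h on the log2 scale at 0.5 h, 1.27 at 1 h and 1.45 at 2 h. At 3 h the difference was largest, 1.85, and later it was 1.61 at 4 h, 1.60 at 5 h and 1.44 at 6 h, each with a standard error of 0.15 from the fit to all arrays. As folds over 0 h these are 1.74, 2.40, 2.73, 3.61, 3.05, 3.03 and 2.72, in order of time. At 3 h 4 genes of the 16552 had a larger change, and at 6 h 19 had. By 0.5 h the gene had reached 43.1% of its largest log2 change, by 1 h 68.3% and by 2 h 78.3%. At 6 h 77.8% of it was left. In a bulk sample, more RNA per cell and more cells that make it cannot be told apart.

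The times fell into an order of levels that ran 0, 0.5, 1, 6, 2, 5, 4 and 3 h from low to high. The gap from 0 h to 0.5 h was 0.80 and that from 0.5 h to 1 h was 0.47, both above the pooled SD of 0.19 between repeats of one time. From 1 h upwards, the neighbouring pairs 1 and 6 h, 6 and 2 h, 2 and 5 h, and 5 and 4 h lay 0.18, 0.01, 0.15 and 0.01 apart. None of these gaps exceeded the pooled SD. The step from 4 h to 3 h, 0.25, was 1.33 times that SD. The means of 1 to 6 h together spanned 0.59.

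The repeats kept a partial order across the course. Array 1 was below its time's mean at all 8 times, by 0.16 on average over the course, and array 3 was above it at all 8, by 0.12 on average. At 0.5 h these differences were minute, as the SD of the 3 arrays was only 0.0012. Set against the 0 h array of the same number, the mean of 1 to 6 h was higher by 1.60 in repeat 1, 1.54 in repeat 2 and 1.47 in repeat 3. Without array 3 of 0, 0.5, 1 and 2 h, the log2 change was 0.90 at 0.5 h and 1.34 at 1 h. It was 1.40 at 2 h, 1.95 at 3 h and 1.54 at 6 h, so that each moved by less than the pooled SD.

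The other subtilases were measured on the same arrays. They are members by locus and not by value, and they were tested with limma, each time against 0 h, with p-values adjusted over all 16552 genes. The family list holds 55 loci besides ATSBT5.2, and 47 of them had a probe set naming 1 gene. A gene was called at an adjusted p under 0.05. No other subtilase was called at 0.5, 1, 2, 4, 5 or 6 h, and 1 was called at 3 h. In the same fit the share of all genes called was 0.224% at 0.5 h, 0.471% at 1 h and 0.973% at 2 h. From 3 to 6 h it was 3.5%, 2.8%, 3.33% and 4.14%, so the count in the family was not above this background at any time. Over all arrays the mean log2 values of the 47 ran from 1.16 for AT5G58840 to 9.76 for SBT4.12. Most of them lay below the lowest array median of 3.86. Whether those probe sets stood above background was not tested, so a missing call there does not show an expressed gene without change. At an unadjusted p under 0.05 in limma, 3, 3, 2, 6, 4, 3 and 6 of the 47 passed at the 7 times in order. The share of all genes at that unadjusted threshold is not given here. Such counts, for the family and for the later lists, are therefore not read against a background.

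The 1 call was a fall, a direction in which 1.17% of all genes were called at 3 h. AT3G14240, of the SBT1 group, had log2 values of 6.87, 6.86 and 6.71 at 3 h, against 7.13, 7.26 and 7.06 at 0 h. The arrays of the 2 times did not overlap. The change was -0.34 ± 0.09 (SE, limma adjusted p = 0.0447), in the direction opposite to ATSBT5.2. In 7 of 15 alternatives it no longer passed, among them the fits without array 1 or 2 of 0 h and without any one array of 3 h, and the adjusted p ran from 0.0174 to 0.276.

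The median change of the 47 lay between -0.07 at 6 h and -0.01 at 1 and 3 h, beside medians between -0.03 and 0.00 for all genes. Between 17 and 22 of the 47 had a change above 0 at any one time. Their highest change was 0.42 at 0.5 h, 0.46 at 1 h, 0.91 at 3 h and 0.92 for 6 h. The value of ATSBT5.2 was above the highest of them at each of the 7 times. That distance was not tested, since ATSBT5.2 was picked for these values.

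**Figure D2:**
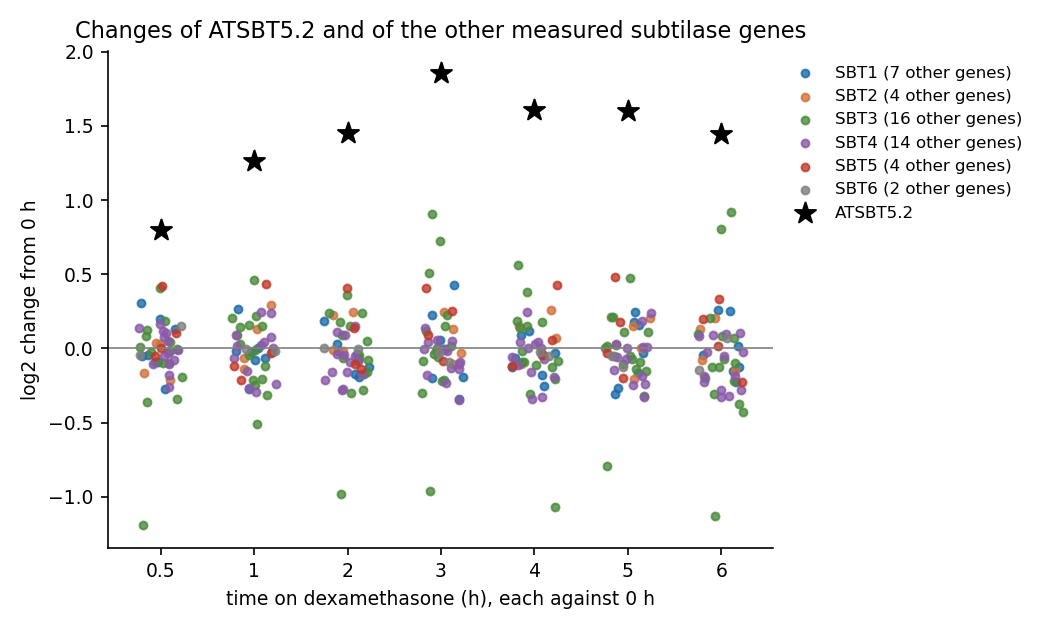
Log2 change from 0 h at each later time for ATSBT5.2 (stars) and for the 47 other measured subtilase genes, coloured by group of the family; points are spread sideways for legibility. ATSBT5.2 lies between 0.80 and 1.85, while the other genes lie between -1.19 and 0.92.

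With array 3 of 0, 0.5, 1 and 2 h left out, more subtilases were called at 3 and 6 h, and so were more genes of all kinds. At 3 h 5 of the 47 were called, against 8.02% of all genes, and at 6 h 3 were called, against 7.27%. AT3G14067, SBT3.5 and AT1G32950 were higher at 3 h in that fit, by 0.37, 0.57 and 0.97, and AT4G10510 had a change of -1.12 (limma adjusted p = 0.0378), beside 0.0353, 0.0192 and 0.0499 for the first 3. The call of AT3G14240 was kept there, with a change of -0.38. AT4G10510 had the lowest change of the family at 6 h with all arrays too, -1.13, with an adjusted p of 0.0539 in limma. It passed there as lower in some alternatives and not in others. Among those where it passed were the replicate block (limma adjusted p = 0.0279) and the variance trend (limma adjusted p = 0.0252). SBT3.5, a subtilase known to process a pectin methylesterase in roots, had a log2 change of 0.51 at 3 h with all arrays (limma adjusted p = 0.0697). AT4G10530 had the highest change of the 47 at 3 h, 0.91, with a limma adjusted p of 0.0529. It passed there as higher in 5 alternatives, among them the fits that dropped array 3 of 0 h (limma adjusted p = 0.0491) or array 2 of 3 h (limma adjusted p = 0.0162). Over all arrays AT4G10510 and AT4G10530 averaged log2 values of only 1.74 and 1.63, below the lowest array median of 3.86. ARA12 was called at 5 h with median centring, with a change of -0.37. AT3G14067, SBT3.5, AT1G32950, AT4G10510, AT4G10530 and ARA12 are named here after their values were seen.

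In the SBT5 group, 4 members besides ATSBT5.2 were measured and none was called in limma at any time. AT1G20150, which lies next to ATSBT5.2 on the chromosome, had log2 values of 1.57, 2.13 and 1.92 at 1 h, against 1.40, 1.47 and 1.46 at 0 h, and of 1.59, 1.87 and 1.61 at 3 h. Its 21 later arrays all lay above its highest 0 h array, as they did for no further member of the 47. Of all 16552 genes 66 (0.399%) had that pattern, and nothing is read from its presence here. The changes lay between 0.25 at 3 h and 0.48 at 5 h, each with a standard error of 0.18, and the limma adjusted p ran from 0.159 at 5 h to 0.565 at 0.5 h. At 3 h, where the mean of ATSBT5.2 was highest, the mean of AT1G20150 was the lowest after 0 h. AT1G20150 averaged 1.79 over all arrays, below the lowest array median of 3.86. The values carry no detection calls, so whether the probe set of AT1G20150 stood above background was not tested.

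AT5G45650 and AT5G45640 are a second pair of SBT5 loci, with r = 0.60 and r = -0.21 over the 8 time means with ATSBT5.2, as descriptions on shared arrays. AT5G45650 averaged 4.96 ± 0.28 at 3 h and 4.56 ± 0.51 at 0 h (SD, n = 3 each), a change of 0.40 with a limma adjusted p of 0.371. Its mean, like that of ATSBT5.2, was highest at 3 h. Its 0 h arrays ran from 4.03 in repeat 1 to 5.06 in repeat 3, wider than the change itself. AT5G45640 had changes between -0.22 at 6 h and 0.09 at 3 h. SBT5.4 had changes between -0.12 and 0.02, with limma adjusted p-values of 0.738 and above. AIR3, a member of the same group found through its auxin response in root cultures, was not analysed here.

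**Figure D3:**
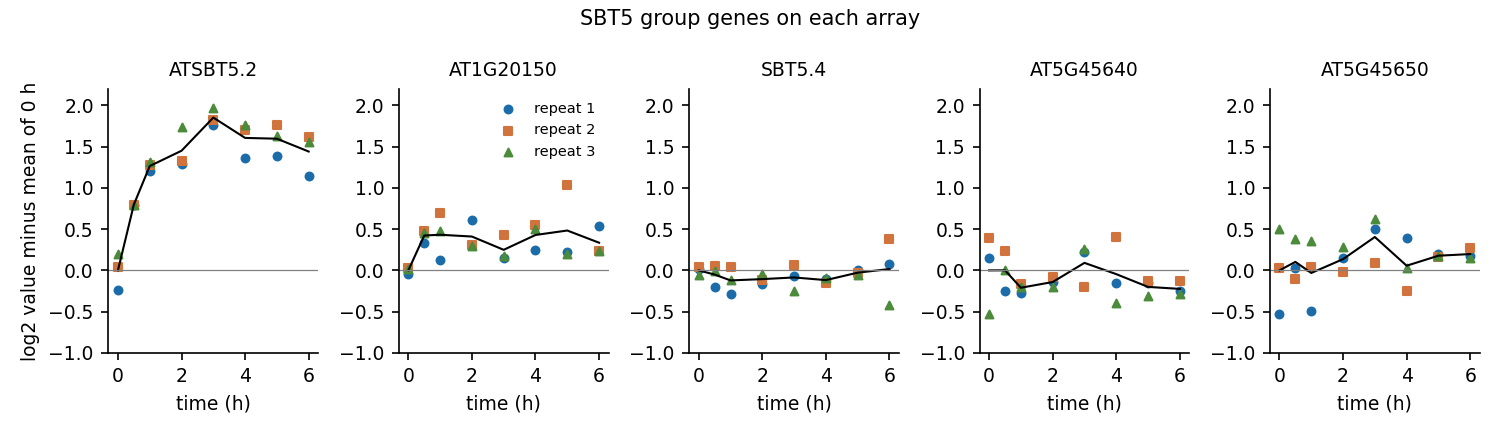
Log2 value minus the mean of the 3 arrays of 0 h, for ATSBT5.2 and the 4 other measured SBT5 genes, against time on dexamethasone in hours; symbols are the 3 repeats and lines join the means. ATSBT5.2 climbs to 1.85 at 3 h, AT1G20150 lies between 0.25 and 0.48 after 0 h, and the means of the other 3 genes lie between -0.22 and 0.40.

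The 4 other subtilases with the highest mean log2 values on these arrays had small changes. SBT4.12, a protease that also acts on the IDA precursor, averaged 9.84 ± 0.05 at 6 h and 9.76 ± 0.07 at 0 h (SD, n = 3 each), with a limma adjusted p of 0.697. AT2G05920 had changes between -0.09 and 0.06. TPP2, a large cytosolic peptidase, had changes between -0.15 at 6 h and 0.00 at 2 h, and AT5G44530 had changes between -0.16 and 0.24. None of the 4 was called at any time. S1P, the Golgi site-1 protease, averaged 6.28 ± 0.13 at 6 h and 6.22 ± 0.03 at 0 h, with a limma adjusted p of 0.786.

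The pathways of known substrates and partners of ATSBT5.2 were thinly covered. Of 17 genes listed for stomatal patterning, abscission and defence, 3 were measured: STOMAGEN, a peptide that promotes stomata, SPCH, the factor that starts the stomatal lineage, and AT5G05300. Over all arrays these averaged log2 values of 1.82, 1.42 and 1.91, below the lowest array median of 3.86. None was called in limma at any time, and the only unadjusted p-values under 0.05 were 1 at 1 h and 1 at 2 h. At 3 h their changes were -0.05, -0.03 and -0.01. SPCH had its largest change, 0.39, at 1 h, with an adjusted p of 0.416 in limma. EPF2, IDA and MYB30 themselves were not analysed here.

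Of 19 listed peptide precursors, subtilase inhibitor and cell wall substrates, 8 were measured and 1 was called. AT4G34600, from the list of peptide precursors, had log2 values of 5.57, 5.80 and 5.44 at 6 h, against 4.70, 4.80 and 5.23 at 0 h. All 6 h arrays lay above those of 0 h. At 3 to 6 h it rose by 0.54, 0.71, 0.74 and 0.69 over 0 h, with limma adjusted p-values of 0.0407, 0.00866, 0.00603 and 0.00746, where 2.33%, 1.78%, 2.09% and 2.5% of all genes rose. Of 15 alternatives, 8 ended the call at 3 h, 3 each ended those at 4 and 6 h, among them the fit without array 1 of 0 h, and 1 ended that at 5 h. At 0.5 and 1 h, where ATSBT5.2 was 0.80 and 1.27 above 0 h, AT4G34600 had changes of 0.17 and 0.22 that were not called. AT1G71950, listed as a subtilase inhibitor, had changes between -0.11 and 0.06. The peptide genes CLV3, CLE40 and CLE45 had changes of -0.37, -0.42 and 0.20 at 3 h and were not called in limma. Their means over all arrays were low, 1.31, 1.70 and 2.28. The remaining precursors AT2G16385, AT5G01075 and AT4G28460 had changes of 0.01, -0.59 and -0.19 at 3 h and were not called either. The largest fall of the list was that of AT5G01075 at 5 h, -0.80 (limma adjusted p = 0.0643). The median change of the 8 was -0.44 at 4 h and -0.09 at both 3 and 6 h, beside -0.02 at 4 h and -0.03 at 3 and 6 h for all genes.

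Markers of other cell types were also called at some times. Of 18 listed markers 6 were measured, and 1 of these, BBM, is a marker of the root meristem itself. None of the 6 was called in limma at 0.5, 1 or 2 h, where ATSBT5.2 was already higher. At these times 0, 2 and 1 of them had an unadjusted p under 0.05. All 6 had changes above 0 at 1 and 2 h. At 3 h 3 of 6 were called, all higher, where 2.33% of all genes were: EXPA7 and EXPA18, which encode wall-loosening expansins in root hairs, rose by 0.77 and 0.96, and RCA, for the leaf enzyme Rubisco activase, rose by 0.68 (limma adjusted p = 0.0415, 0.026 and 0.00884). RCA also rose at 4, 5 and 6 h, where 1.78%, 2.09% and 2.5% of all genes rose, with log2 values of 5.19, 5.34 and 5.45 at 6 h, against 4.49, 4.65 and 4.50 at 0 h. The 3 h calls of EXPA7 and EXPA18 ended without array 1 or 2 of 0 h, with adjusted p up to 0.204 and 0.130 in those limma fits, and that of RCA without array 3 of 3 h (limma adjusted p = 0.0724). RCA kept its call at 6 h under all 15 alternatives and lost those at 4 and 5 h in 8 each, again without array 1 or 2 of 0 h among others. BBM, FMA and SPCH were not called. The mean log2 value over the 6 markers, BBM included, ran from 4.46 to 4.62 on the arrays of 0 h and from 4.46 to 4.66 on those of 0.5 h. It ran from 4.67 to 4.77 at 1 h, 4.68 to 4.74 at 2 h and 4.77 to 5.00 at 3 h. At 4, 5 and 6 h it ran from 4.77 to 4.95, 4.71 to 4.87 and 4.85 to 4.97. All arrays from 1 to 6 h thus lay above all arrays of 0 h. At 1 h the largest changes in that mean were those of SPCH, 0.39, and FMA, 0.27. The other markers had changes from 0.10 for BBM to 0.24 for RCA at 1 h. How often a mean of 6 other genes would separate so was not tested. FMA and SPCH averaged log2 values of 1.55 and 1.42 over all arrays, below the lowest array median of 3.86. Whether these 2 stood above background was not tested. At 0 h, EXPA7 was higher in array 3 (8.51) than in arrays 1 and 2 (7.73 and 7.88), as ATSBT5.2 was. The part of these cells in the ATSBT5.2 values was not tested.

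The genes whose time course was most like that of ATSBT5.2 were taken by Pearson's r over the 8 time means, among 341 other genes whose means spanned at least 1 on the log2 scale. These are descriptions over 8 points that share arrays and the 0 h group, and such likeness says nothing of function or control. AT4G23500 came first, with r = 0.989 over 8 times and r = 0.949 over 24 arrays. Its log2 values were 6.72, 6.62 and 6.88 at 3 h, against 5.70, 5.53 and 5.95 at 0 h. As for ATSBT5.2, its highest mean was at 3 h and its lowest at 0 h, and the change at 3 h was smaller, 1.01 against 1.85. After the mean of each time was taken off, the deviations of both genes on the 24 arrays still went together, with r = 0.671.

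AT3G04440, AT5G39220, MT1B, AT1G67340, AT5G52450, AT1G02380 and DOF2.1 followed, with r over the 8 times from 0.952 down to 0.927. MT1B, a metallothionein gene, had a change of 1.68 at 3 h and 1.62 at 6 h. Over 24 arrays their r lay between 0.682 for MT1B and 0.869 for DOF2.1. Within times it ranged from -0.52 for AT5G39220 to 0.47 for AT1G67340, and it was 0.29 for DOF2.1. No other subtilase was among the 8. Over the 47, r with ATSBT5.2 ranged from -0.94 to 0.74, the highest for SBT3.5, and their median span was 0.35, as it was for all genes (0.35).

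**Figure D4:**
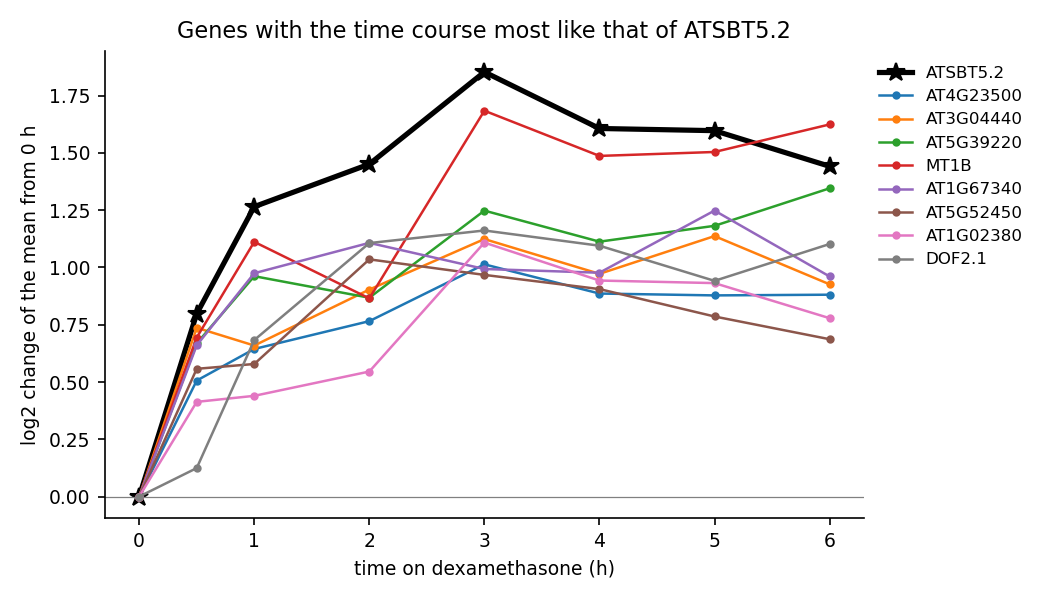
Log2 change of the mean from 0 h against time on dexamethasone in hours for ATSBT5.2 (thick black line) and the 8 genes with the highest Pearson correlation to it over 8 time means. ATSBT5.2 has the largest change up to 5 h, and at 6 h MT1B is higher, with 1.62 beside 1.44.

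Set beside 4 other genes of the course, ATSBT5.2 had a timing between the earliest and the later ones. At 0.5 h AT4G38650 had reached 73.4% of its largest change, MYBC1, a MYB-like factor gene, 87.8%, ATSBT5.2 43.1%, DOF2.1 (AT2G28510, the DOF transcription factor gene of the series title) 10.7% and BGLU44, a beta-glucosidase gene, -2.99%. The first pair reached its highest mean at 1 h, ATSBT5.2 and DOF2.1 at 3 h and BGLU44 at 6 h. DOF2.1 had no distinct peak, with 95.3% of its largest change at 2 h and 94.3% at 4 h. It averaged 7.42 ± 0.21 at 2 h and 7.48 ± 0.19 at 3 h (SD, n = 3 each). At 6 h ATSBT5.2 kept 77.8% of its largest change, close to the 73.5% of MYBC1, while AT4G38650 kept 36.0%, DOF2.1 94.9% and BGLU44 100%. All 5 curves share the 0 h arrays, and the differences in timing were not tested.

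**Figure D5:**
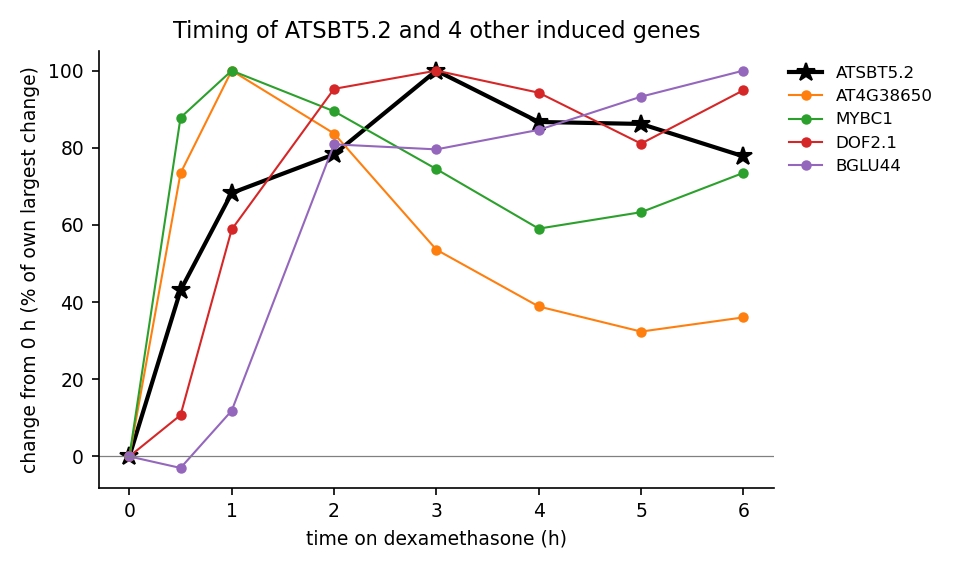
Change of the mean log2 value from 0 h, as a percentage of each gene's own largest change, against time on dexamethasone in hours, for ATSBT5.2 and 4 other genes. AT4G38650 and MYBC1 peak at 1 h, ATSBT5.2 and DOF2.1 at 3 h, and BGLU44 is highest at 6 h.

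In the stretch of chromosome 1 around ATSBT5.2, the 5 protein-coding genes on either side were read in the order of RefSeq, a window set after the values were seen. Of these 10 genes 7 were measured and 1 was called at any time, beside 6.91% of all genes. AT1G20225, the fifth gene on one side, rose by 0.48, 0.62, 0.74 and 0.72 at 3, 4, 5 and 6 h, with limma adjusted p-values of 0.0353, 0.00871, 0.00174 and 0.00201, where 2.33%, 1.78%, 2.09% and 2.5% of all genes rose. It had changes of 0.17 at 0.5 h and 0.06 at 1 h. Of 15 alternatives, 7 ended the call at 3 h and 2 that at 4 h, the fit without array 1 of 0 h being among both. The nearest genes, AT1G20150 on one side and AT1G20180 on the other, were not called at any time, and AT1G20180 had changes between -0.08 and 0.10.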

How the data were processed

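RNA from root meristems was hybridised to 24 Affymetrix whole-transcript arrays. The authors deposited log2 values from RMA, per the submitters' processing notes. RMA corrects background, normalizes quantiles and summarises probes. The RMA version was not given in the sources used here, nor was the array's build. RMA can hide a shift shared by most genes and compresses large folds. The table held 38408 probe sets, and the platform annotation named 1 gene for 16746 of them, several for 758, while 20904 had no name here. Probe sets of 1 gene were averaged on the log2 scale, giving 16552 genes. The RefSeq TAIR10.1 table matched 16601 probe sets and was used for names and gene order. Family membership came from general knowledge of the loci, not from the files.

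A model with 8 group means was fitted to 24 arrays with lmFit and eBayes of limma 3.58.1 (R 4.3.3), with Benjamini-Hochberg adjustment over all genes. ATSBT5.2 and the gene lists were chosen with earlier results of these data known. Genes were named by a rule: ATSBT5.2, measured SBT5 genes, called subtilases, 4 subtilases of highest mean, up to 4 called members of each other list, 8 genes most like ATSBT5.2 and genes set for comparison. Alternatives were median centring, a second quantile normalization, the repeat number as a block, a filter on dim genes, a variance trend, array weights, the brightest probe set, only the arrays compared, and leaving out each array.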

Additional observations from a re-analysis of the deposited data

How the results depend on the processing

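The log2 changes of ATSBT5.2 moved by less than the pooled SD between repeats under every alternative run. Several alternatives could not move them. Each repeat number occurs at every time, so the replicate block leaves them the same, and the gene has only 1 probe set. The dim filter, the variance trend and the fit to only the arrays compared do not alter a difference of means. Leaving out single arrays gave 0.68 to 0.90 at 0.5 h, 1.14 to 1.36 at 1 h and 1.30 to 1.55 at 2 h. The later ranges, 3 to 6 h in order, were 1.73 to 1.95, 1.49 to 1.73, 1.48 to 1.70 and 1.32 to 1.59. Calls among the other subtilases, 1 at 3 h and 0 elsewhere, ran without single arrays from 0 to 1 at 2 h, 0 to 3 at 3 h and 0 to 2 at 6 h and stayed at 0 at the remaining times. For 3 h, dropping array 3 of 0 h gave 3 calls, and dropping array 1 or 2 of 0 h or array 1 or 3 of 3 h gave 0. It was 2 at 3 h after a second quantile normalization, under the replicate block, without the dimmest 25% of genes and with a variance trend, and 0 with array weights and with only the 6 arrays compared. It was 1 at 4 h under the replicate block and with a variance trend, at 5 h 1 with median centring, and at 6 h 1 with median centring, the replicate block, the dim filter and the trend. An alternative chosen after seeing the data dropped array 3 of 0 to 2 h and gave 1 call at 2 h, 5 at 3 h, 1 at 4 h and 3 for 6 h. Over all fits 7 of the 47 were called at some time. Why these counts moved was not tested. Calls among all genes without single arrays ran from 17 to 64 at 0.5 h, 43 to 124 at 1 h and 103 to 275 at 2 h, and over 3 to 6 h from 195 to 1174, 190 to 996, 220 to 1023 and 317 to 1129, against 37, 78, 161, 579, 464, 551 and 686 with all arrays. They were 23 at 0.5 h and 51 at 1 h with array weights, 728 at 4 h under the replicate block, and 1328, 1076, 1091 and 1204 at 3, 4, 5 and 6 h without array 3 of 0 to 2 h. With only the 6 arrays compared, which leaves fewer degrees of freedom, they were 0, 2, 8, 41, 69, 101 and 197. Of 2303 values of single genes under alternatives, 161 lost a call and 44 gained one. A turn of direction was counted only where the gene was called in either fit, and there were 0. Turns among values not called were not counted. The repeat numbers did not meet the criterion for pairing, an r over 0.1 in every pair: deviations from the time means of 84 same-numbered pairs correlated with r between -0.03 and 0.22 (median 0.03), and 14 exceeded 0.1, beside a median of -0.02 for arrays with other numbers. All 10 pairs of array 3 among 0, 0.5, 1, 2 and 3 h were among the 14, with r from 0.11 to 0.22. A criterion set on every pair is strict, and missing it does not show that same-numbered arrays were independent. By design, the replicate block left the changes of ATSBT5.2 as they were. No detection calls came with the values, and 3 arrays a time limit what could be called.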
